A study of Mus musculus with 6 samples.

Results

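Gdpd3, Ypel3 and Tbx6 are consecutive genes on mouse chromosome 7, and their transcripts were lower in splenic monocytes of IL-4Rα-/- mice than of IL-4Rα+/+ mice, while the genes on either side of them were not. They belong to a block of 10 genes that lies about 1.2 Mb from Il4ra, the gene targeted in these mice. The 10 members, Coro1a, Mapk3, Gdpd3, Ypel3, Tbx6, Ppp4c, Aldoa, Doc2a, Ino80e and Taok2 in map order, were chosen by position out of 55421 genes counted, with their values in this comparison already known. The values of the members between the genotypes are therefore given as a description, and where calls of the members are counted, nothing is read from the count.

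The 2 groups were IL-4Rα+/+ and IL-4Rα-/- mice of the C57BL/6J strain background, 3 of each, whose splenic monocytes were enriched by negative selection, in which antibodies on magnetic beads remove the other leukocytes. Each mouse gave 1 library of polyadenylated RNA. The IL-4Rα-/- mice lack the receptor in every cell of the body, not in monocytes alone, and neither group had been treated. The age and sex of the single mice are not in the labels. Every IL-4Rα-/- mouse carries the targeted Il4ra allele with the DNA inherited along with it, so loss of the receptor and linked DNA cannot be told apart in this design. The strain in which the allele was made, and the number of backcrosses, are not given in the sources used here.

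Il4ra encodes the chain shared by the receptors of interleukin-4 and interleukin-13, which signals to the nucleus through STAT6. The block near it is the mouse counterpart of a gene-dense human region whose deletion or duplication is linked to neurodevelopmental conditions, and its genes serve unrelated tasks. Genes that lie close together on a chromosome can share open chromatin and enhancers, and they are inherited together.

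By role, the members are as follows. Gdpd3 encodes a lysophospholipase D of the glycerophosphodiester phosphodiesterase family, which makes lysophosphatidic acid. Ypel3 encodes a small zinc-binding protein of the yippee-like family that has been linked to growth arrest. Tbx6 encodes a T-box transcription factor known from the early mesoderm of the embryo. Mapk3 encodes the kinase ERK1, and Taok2 a kinase upstream of p38 and JNK. Ppp4c encodes the catalytic subunit of protein phosphatase 4, Aldoa the glycolytic enzyme aldolase A, and Ino80e a subunit of the INO80 chromatin remodeler. Coro1a encodes coronin 1A, an actin-binding protein abundant in leukocytes, and Doc2a a calcium sensor of vesicle release in neurons.

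On the GRCm38 build Il4ra occupies bases 125552120 to 125579474 of chromosome 7, plus strand. The members run from Coro1a, at 126699773 to 126707787 and 1.12 Mb from Il4ra, to Taok2, at 126865678 to 126884703 and 1.29 Mb from it. Gdpd3 lies at 126766334 to 126775649, Ypel3 at 126776955 to 126780514 and Tbx6 at 126781483 to 126785560, all on the plus strand. Mapk3, at 126759601 to 126765819 on the same strand, ends 514 bp before Gdpd3. A gap of 1305 bp separates Gdpd3 from Ypel3, and one of 968 bp Ypel3 from Tbx6. Tbx6 ends 305 bp before the end of Ppp4c, which lies on the minus strand from 126785866 to 126792496. The genes with lower transcripts are thus bounded on both sides, within less than 1 kb, by genes whose libraries overlapped between the genotypes.

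The promoters of these 3 genes are shown because the genes were low together. They are RefSeq sequences of GRCm38.p6 from 250 bases before to 50 bases after the start, printed in the direction of transcription, which is the plus strand. Capitals mark a TATAAA in the Tbx6 promoter and a CCAAT on the opposite strand (printed as ATTGG) in the Ypel3 promoter, while the Gdpd3 promoter holds none of the motifs searched. They lie at chr7:126766164-126766463 (Gdpd3), chr7:126776713-126777012 (Ypel3) and chr7:126781233-126781532 (Tbx6).
Gdpd3: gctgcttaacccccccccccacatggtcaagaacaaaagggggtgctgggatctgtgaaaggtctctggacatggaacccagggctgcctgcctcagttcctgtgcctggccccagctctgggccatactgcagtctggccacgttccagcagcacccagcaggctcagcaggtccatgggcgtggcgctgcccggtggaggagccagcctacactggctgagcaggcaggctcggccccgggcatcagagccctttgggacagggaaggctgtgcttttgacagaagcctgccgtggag
Ypel3: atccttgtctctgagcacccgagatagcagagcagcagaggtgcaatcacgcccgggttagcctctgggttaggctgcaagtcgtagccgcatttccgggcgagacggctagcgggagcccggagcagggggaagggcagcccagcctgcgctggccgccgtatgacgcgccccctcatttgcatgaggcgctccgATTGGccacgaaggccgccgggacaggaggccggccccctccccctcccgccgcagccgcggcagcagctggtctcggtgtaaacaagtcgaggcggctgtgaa
Tbx6: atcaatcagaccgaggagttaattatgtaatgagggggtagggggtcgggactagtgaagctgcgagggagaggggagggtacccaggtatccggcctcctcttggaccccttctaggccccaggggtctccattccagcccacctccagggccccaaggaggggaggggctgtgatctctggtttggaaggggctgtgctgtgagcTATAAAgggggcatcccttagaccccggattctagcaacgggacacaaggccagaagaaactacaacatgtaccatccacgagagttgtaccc

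The promoter of Ypel3 had a GC content of 67.7% with 28 CpG dinucleotides, against 64.3% with 7 for Gdpd3 and 57.7% with 7 for Tbx6. Over all 32851 promoters of the same length the median GC content was 52.7% and the median number of CpG dinucleotides was 7. The TATAAA of Tbx6 began 43 bases before the start, and 13.6% of all promoters hold this motif. The CCAAT of Ypel3 began 54 bases before the start, and 37.4% of all promoters hold one on either strand. Of the 10 members, 8 have an entry in the RefSeq promoter table, with 13 promoters in all. None of the 13 holds TTC and GAA with 4 free bases between them, the spacing preferred by STAT6, which 6.95% of all promoters hold. None holds them with 3 free bases between, the spacing of other STAT proteins, found in 8.3%. Both motifs read the same on the other strand. The GC box, GGGCGG or CCGCCC on either strand and present in 35.7% of all promoters, occurred in promoters of Coro1a, Ppp4c, Aldoa and Ino80e. The E-box CACGTG, in 7.15% of all promoters and also the same on both strands, occurred in 1 of the promoters of Ino80e. These are matches of letters, not sites shown to be bound, and TATAAA and CCAAT were added to the search after the data were seen.

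Between 26807281 and 29033297 reads per library were counted on genes, and levels are in CPM, the counts of a gene scaled to a common library size by TMM normalization. A floor of 3 counts corresponds to 0.101 to 0.113 CPM. Monocyte markers summed to 19700 to 24000 CPM in IL-4Rα+/+ and 21000 to 24500 CPM in IL-4Rα-/- libraries, with Lyz2 as the largest part of each sum and Csf1r at 2230 CPM or more in each library. Single monocyte markers varied more. Ace, a marker of patrolling Ly6C-low monocytes, was at 2770, 2120 and 1090 CPM in IL-4Rα+/+ and 1750, 710 and 1600 CPM in IL-4Rα-/- libraries. Ccr2, which marks the Ly6C-high subset, was at 380, 1050 and 1670 against 826, 2010 and 979 CPM. IL-4Rα+/+ replicate 1 was thus highest for Ace and lowest for Ccr2, and IL-4Rα-/- replicate 2 the reverse. Markers of some other cells moved with genotype. The erythroid list summed to 64.3 to 129 CPM in IL-4Rα+/+ and 177 to 450 CPM in IL-4Rα-/- libraries (11 of 14 genes higher without overlap), the eosinophil, basophil and mast cell list to 80.2 to 94.4 against 136 to 219 CPM (8 of 12 genes), and the red pulp macrophage list to 3970 to 4480 against 4950 to 7640 CPM (5 of 12 genes). Of all genes tested, 7.63% were higher without overlap. In the eosinophil, basophil and mast cell list Ccr3 held the largest part of each sum. Siglecf of that list overlapped, at 0.949, 1.48 and 0.755 CPM in IL-4Rα+/+ and 0.678, 0.665 and 0.812 CPM in IL-4Rα-/- libraries. No gene of these 3 lists was at 3 counts or fewer in every library. IL-4Rα-/- replicate 2 stood apart in pancreatic enzyme genes, at 375 CPM against 10.5 to 55.2 CPM elsewhere, and in neutrophil genes, at 679 against 61.7 to 277 CPM. The part of these cells, and of the monocyte subsets, in the members' values was not tested. In bulk RNA, fewer cells that express a gene and less RNA of it per cell cannot be told apart.

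The targeted gene was read first. Il4ra was at 137, 128 and 177 CPM in IL-4Rα+/+ replicates 1, 2 and 3 and at 27.9, 79.4 and 31.8 CPM in the IL-4Rα-/- libraries. The genotypes did not overlap, and IL-4Rα-/- replicate 2 kept the most reads of its group. The log2 fold change was -1.67 (standard error 0.41, n = 3 per genotype), and -2.30 without that library.

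Gdpd3 had the log2 fold change farthest from 0 among the members. Its counts were 534, 462 and 438 in IL-4Rα+/+ and 162, 208 and 264 in IL-4Rα-/- libraries, or 18.8, 16.7 and 16.5 CPM against 5.78, 7.29 and 8.93 CPM. The lowest IL-4Rα+/+ library thus held 16.5 CPM and the highest IL-4Rα-/- library 8.93 CPM. The means were 17.3 ± 1.24 CPM (SD, n = 3) and 7.33 ± 1.57 CPM (SD, n = 3), so that IL-4Rα-/- monocytes held 42.3% of the IL-4Rα+/+ level (log2 fold change -1.24, standard error 0.18). In the annotation Gdpd3 shares 298 bp of exon with Gm9967, a transcript on the opposite strand. Gm9967 had 1, 5 and 1 counts in IL-4Rα+/+ and 3, 2 and 0 counts in IL-4Rα-/- libraries.

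Ypel3 was the most abundant of the 3 genes. It was at 228, 206 and 172 CPM in IL-4Rα+/+ and 136, 101 and 114 CPM in IL-4Rα-/- libraries, again with no overlap, from 6482, 5706 and 4543 counts against 3811, 2889 and 3385. The means were 202 ± 28.4 CPM (SD, n = 3) and 117 ± 17.6 CPM (SD, n = 3), or 58.1% of the IL-4Rα+/+ level (log2 fold change -0.78, standard error 0.15). No annotated gene shares exons with Ypel3.

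Tbx6 rested on far fewer reads. It had 328, 163 and 175 counts in IL-4Rα+/+ and 133, 81 and 93 counts in IL-4Rα-/- libraries, which is 11.5, 5.9 and 6.61 CPM against 4.75, 2.84 and 3.15 CPM. The groups were separate by a narrow margin, since the lowest IL-4Rα+/+ library held 5.9 CPM and the highest IL-4Rα-/- library 4.75 CPM. The IL-4Rα-/- mean, 3.58 ± 1.03 CPM (SD, n = 3), was 44.7% of the IL-4Rα+/+ mean of 8.01 ± 3.06 CPM (SD, n = 3), and the log2 fold change was -1.16 (standard error 0.33). IL-4Rα+/+ replicate 1 was nearly apart from its group, and without it the log2 fold change was -0.81.

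**Figure D1:**
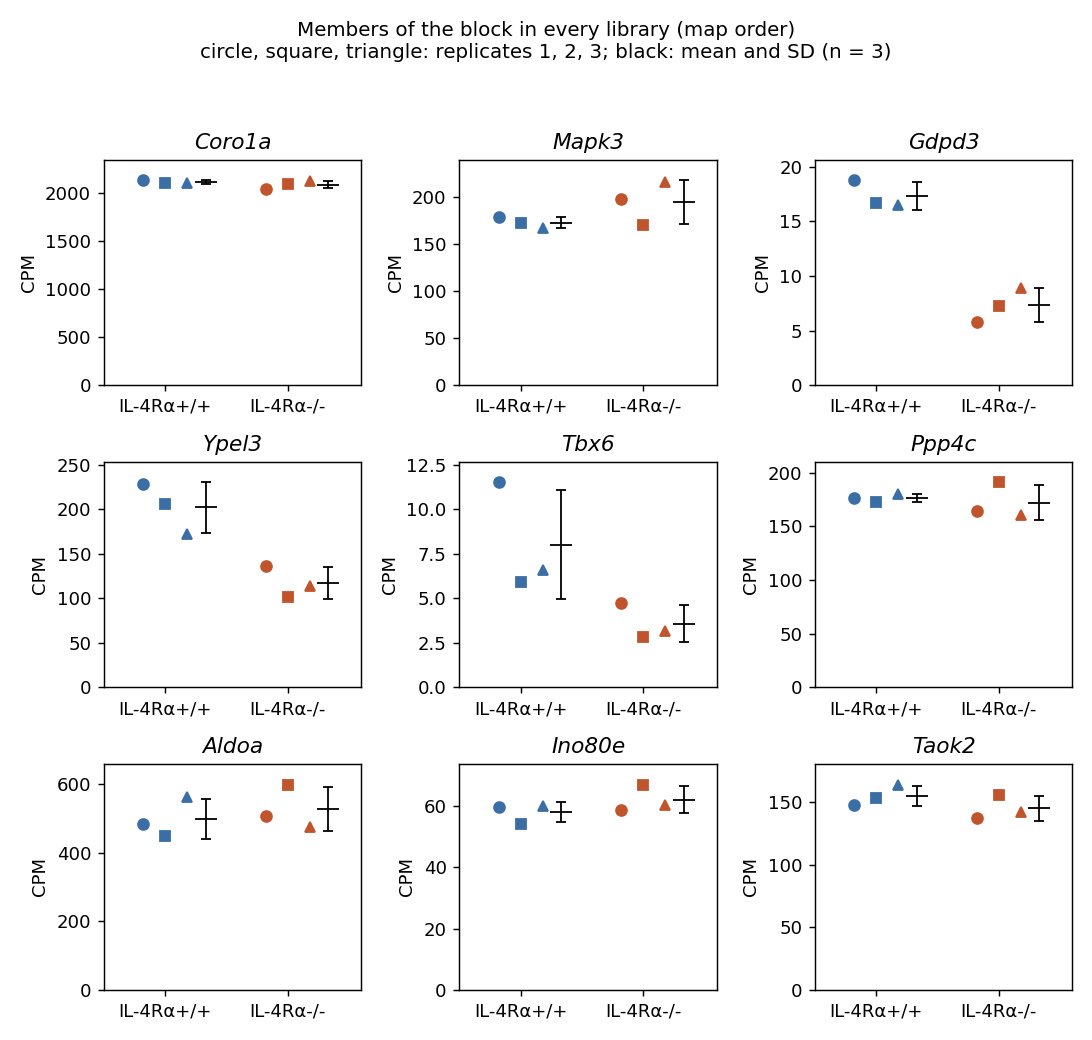
CPM of the 9 members with enough counts for a test, 1 panel per gene with the vertical axis starting at 0, 1 symbol per library (circle, square and triangle for replicates 1, 2 and 3) and the mean with its SD (n = 3) in black. The IL-4Rα-/- libraries lie below all IL-4Rα+/+ libraries for Gdpd3 (8.93 CPM at most against 16.5 at least), Ypel3 (136 against 172) and Tbx6 (4.75 against 5.9), and the genotypes overlap in the other 6 panels.

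IL-4Rα+/+ replicate 1 held the highest level of all 3 genes. Among IL-4Rα-/- libraries, replicate 2, which kept the most Il4ra, was lowest for Ypel3 and Tbx6 and in the middle for Gdpd3. The IL-4Rα-/- library with the least Il4ra, replicate 1, had the lowest level of Gdpd3 and the highest of Ypel3 and Tbx6. IL-4Rα+/+ replicate 1 and IL-4Rα-/- replicate 2 were also the libraries with the most and the least Ace. IL-4Rα+/+ replicate 3 had less Ace than IL-4Rα-/- replicates 1 and 3 (1090 against 1750 and 1600 CPM). It held more Gdpd3, Ypel3 and Tbx6 than either, as every IL-4Rα+/+ library did, since the genotypes do not overlap for these genes. The genes were chosen with these values known, so nothing about the subsets is read from this. The part of the monocyte subsets in these values was not tested.

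The neighbours that bound these genes had other values. Mapk3 was at 179, 172 and 167 CPM in IL-4Rα+/+ and 198, 170 and 216 CPM in IL-4Rα-/- libraries, so its genotypes overlapped and its mean was not lower (173 ± 6.01 against 194 ± 23 CPM, SD, n = 3, log2 fold change 0.17, standard error 0.10). Ppp4c was at 176, 173 and 180 CPM against 164, 191 and 161 CPM (log2 fold change -0.03, standard error 0.09). Over the 6 libraries Mapk3 had 4430 to 6372 counts and Ppp4c 4605 to 5464, beside 2889 to 6482 for Ypel3.

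Further out, the genotypes overlapped for each member with enough reads. Coro1a, the most abundant member, was at 2140, 2110 and 2110 CPM in IL-4Rα+/+ and 2050, 2100 and 2130 CPM in IL-4Rα-/- libraries (log2 fold change -0.02, standard error 0.07). The log2 fold change was 0.08 (standard error 0.12) for Aldoa, at 449 to 562 against 476 to 599 CPM, and 0.10 (standard error 0.08) for Ino80e, at 54.3 to 60.2 against 58.9 to 67.1 CPM. Taok2 was at 148 to 164 against 137 to 156 CPM (log2 fold change -0.10, standard error 0.08). Doc2a was at or under the floor of 3 counts in every library, with 2, 2 and 3 counts in IL-4Rα+/+ and 1, 3 and 0 counts in IL-4Rα-/- libraries, so no fold change is given. Ino80e shares 1103 bp of exon with Doc2a and 150 bp with Hirip3, Aldoa shares 25 bp with Fam57b and Coro1a 26 bp with Bola2, all on opposite strands.

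**Figure D2:**
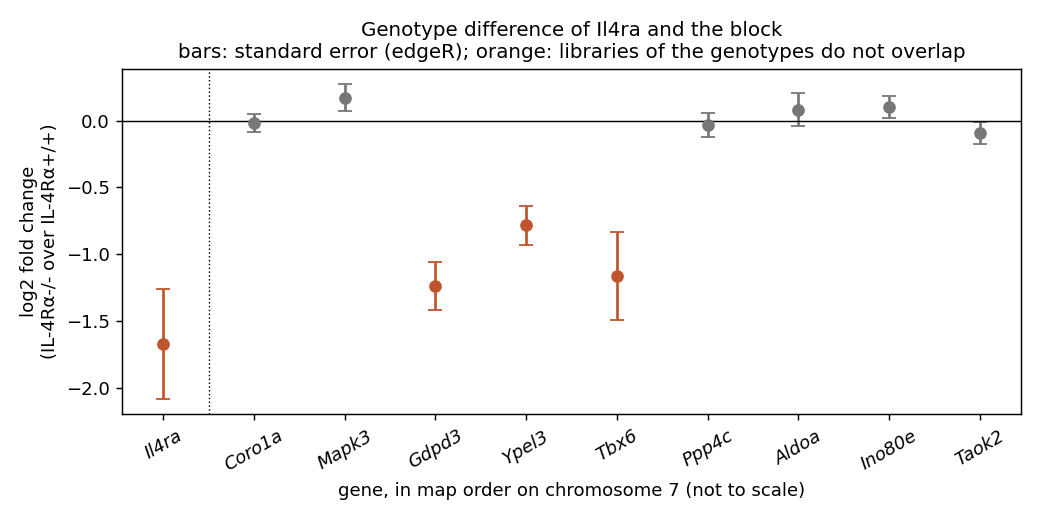
Log2 fold change of IL-4Rα-/- over IL-4Rα+/+ monocytes for Il4ra and the 9 tested members in map order, which is not to scale, with standard errors from edgeR (n = 3 per genotype). Gdpd3 (-1.24), Ypel3 (-0.78) and Tbx6 (-1.16), in orange as their libraries do not overlap, stand between Mapk3 (0.17) and Ppp4c (-0.03), and the other members lie between -0.10 and 0.17.

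Counted over the block, 9 of the 10 members passed the filter on low counts. In the quasi-likelihood test of edgeR, adjusted after Benjamini-Hochberg, 0 of the 9 passed the study's threshold of 0.15, as did 0% of the 13849 genes tested, whose smallest adjusted p was 0.618. The study itself applied that threshold to DESeq2, not to edgeR. At an unadjusted p under 0.05 there were 3 lower members, beside 4.37% of all genes, and 0 higher members, beside 3.72%. The same 3 members were lower without overlap, beside 7.87% of all genes, and 0 were higher without overlap, beside 7.63%. DESeq2 at the same threshold called these 3 members lower, beside 0.293% of the 14003 genes to which it gave an adjusted p, and 0.571% in either direction. The median log2 fold change was -0.03 over the 9 members and 0.008 over all genes tested. Among all genes tested, 1.39% had a log2 fold change at least as far from 0 as Gdpd3, 1.59% as far as Tbx6 and 4.84% as far as Ypel3.

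A ratio to Mapk3 within each library does not depend on how libraries are scaled against each other. Gdpd3 was at 10.5, 9.73 and 9.89% of Mapk3 in IL-4Rα+/+ and at 2.93, 4.29 and 4.14% in IL-4Rα-/- libraries. Ypel3 was at 127, 120 and 103% against 68.9, 59.6 and 53.1%, and Tbx6 at 6.43, 3.43 and 3.95% against 2.4, 1.67 and 1.46%. The genotypes were separate in all 3 ratios, as they were in CPM. Mapk3 itself was at 112% of its IL-4Rα+/+ level in IL-4Rα-/- libraries, which makes the ratios differ more than the CPM. The Gdpd3 ratio in IL-4Rα-/- libraries was 0.378 times that in IL-4Rα+/+ libraries, where its CPM was at 42.3%. Mapk3 is a member whose values were known, so the ratios are a description only. In IL-4Rα+/+ monocytes each library held more Ypel3 than Mapk3 reads, and in IL-4Rα-/- monocytes each held fewer.

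The members differ widely in how strongly they are expressed. Per kb of merged exons, the mean level over the 6 libraries was 756 CPM per kb for Coro1a, which placed it above 99.8% of the genes tested. Aldoa followed at 176, Ypel3 at 86.3, Mapk3 at 81.3, Ppp4c at 40.7, Taok2 at 16.1, Ino80e at 7.87, Gdpd3 at 5.64, Tbx6 at 3.21 and Doc2a at 0.0236 CPM per kb. In IL-4Rα+/+ libraries alone, Gdpd3 was at 7.93 and Tbx6 at 4.44 CPM per kb, with Ino80e between them at 7.6, while Ypel3 was at 109, so the genes that were low in IL-4Rα-/- monocytes do not share a level.

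In this order each gene lay above the next in 6 of 6 libraries, with exceptions at Ypel3 and at Gdpd3. Ypel3 lay above Mapk3 in 3 of 6 libraries, those of IL-4Rα+/+ mice (109 against 76.5 CPM per kb on average), and below it in the IL-4Rα-/- libraries (63.4 against 86.1 CPM per kb). Ino80e lay above Gdpd3 in 4 of 6 libraries. With the length of the longest transcript in place of merged exons, Ypel3 and Mapk3 exchanged places and no other member moved.

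**Figure D3:**
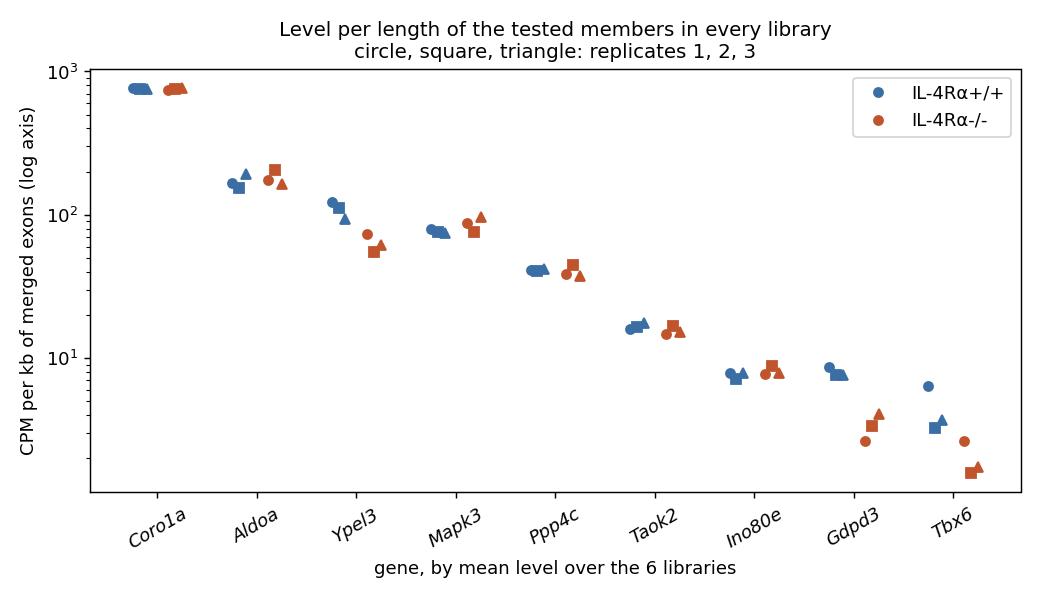
Level of the 9 tested members in CPM per kb of merged exons on a log axis, 1 symbol per library (circle, square and triangle for replicates 1, 2 and 3), ordered by the mean over the 6 libraries. Levels run from 756 CPM per kb for Coro1a to 3.21 for Tbx6, and Ypel3 lies above Mapk3 only in IL-4Rα+/+ libraries.

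Neighbouring genes did not all vary together from mouse to mouse. After the mean of each genotype was removed, the log2 CPM of Ypel3 and Tbx6 had a correlation of 0.78 over the 6 libraries, whereas Gdpd3 had correlations of -0.24 with Ypel3 and -0.21 with Tbx6. With the genotype means left in, the correlations were 0.94 for Ypel3 with Tbx6 and 0.85 for Gdpd3 with Ypel3. Of all pairs of tested members, the correlation within genotypes was highest for Gdpd3 with Coro1a, at 0.99, and lowest for Ypel3 with Taok2, at -0.96. Coro1a itself varied little, at 2050 to 2140 CPM over the 6 libraries. Within genotypes, the correlation with Il4ra was 0.10 for Gdpd3, -0.77 for Ypel3 and -0.46 for Tbx6. For the other tested members it ran from -0.87 for Mapk3 to 0.98 for Ppp4c. These correlations share 6 libraries and 4 degrees of freedom, and are given as a description only.

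Other genes around Il4ra, which the choice of the block did not use, were then examined in the same edgeR test over all genes. Within 5 Mb of Il4ra 132 other genes were tested, and 0 had an adjusted p under 0.15 by edgeR or by DESeq2. At an unadjusted p under 0.05 there were 8 lower and 7 higher genes, together 11.4% against 8.09% of all genes tested. The genotypes did not overlap in 15.9% of these genes, against 15.5% of all genes tested. The median log2 fold change was -0.04.

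Between Il4ra and the block lie 23 tested genes, of which 3 were lower and 0 higher at an unadjusted p under 0.05, beside 4.37% lower and 3.72% higher of all genes tested. Of the same 23 genes, 4 (17.4%) were lower and 0 higher without overlap, beside 7.87% lower and 7.63% higher of all genes tested. Il21r, next to Il4ra with 0.051 Mb between the starts of the genes and encoding the interleukin-21 receptor, was at 45.8, 34.8 and 22.5 CPM in IL-4Rα+/+ and 17.9, 17.5 and 23 CPM in IL-4Rα-/- libraries (log2 fold change -0.82, standard error 0.26). Its genotypes overlapped. Atxn2l, 0.94 Mb from Il4ra by the same measure and encoding an RNA-binding protein of stress granules, was at 318 to 337 against 280 to 294 CPM (log2 fold change -0.20, standard error 0.07), without overlap. Inside the block Bola2 and Hirip3 were the only other genes tested. Their log2 fold changes were 0.18 (standard error 0.12) and 0.10 (standard error 0.15), both with overlap, so neither was low in the way of Gdpd3, Ypel3 and Tbx6.

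Of the 10 neighbours with the smallest unadjusted p, the remaining 8 were scattered over both sides. Bag3, a co-chaperone gene that starts 2.97 Mb beyond Il4ra by the same measure, had a log2 fold change of -0.64 (standard error 0.18), and Prkcb, which encodes protein kinase C beta and starts 3.26 Mb before Il4ra, one of -0.51 (standard error 0.17). Itgad, which encodes the integrin subunit αD of splenic macrophages, was at 134, 126 and 134 CPM in IL-4Rα+/+ and 319, 231 and 146 CPM in IL-4Rα-/- libraries (log2 fold change 0.82, standard error 0.26). Red pulp macrophage markers were higher in the same libraries, and their part in Itgad was not tested. The log2 fold changes of Plk1, Hs3st2, Cdr2, Bcl7c and Zfp646 were 0.78, 0.76, 0.72, 0.29 and -0.21, and each of the 10 had an adjusted p of 0.618 from edgeR.

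**Figure D4:**
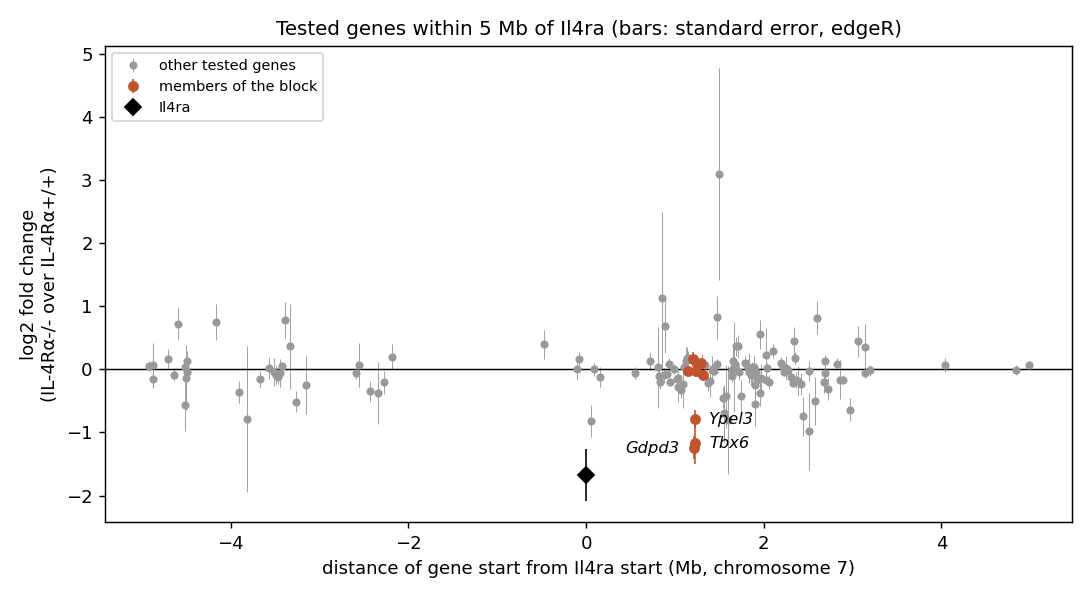
Log2 fold change of IL-4Rα-/- over IL-4Rα+/+ monocytes against the distance of each gene's start from that of Il4ra, in Mb, for the tested genes within 5 Mb, with standard errors from edgeR (n = 3 per genotype). Gdpd3, Ypel3 and Tbx6 lie at -1.24, -0.78 and -1.16 among members and neighbours that lie mostly close to 0, and the highest point is Zg16 at 3.10 (standard error 1.69), which was named after its values were seen and had most of its counts in IL-4Rα-/- replicate 2.

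The paralogs and partners of the members were taken as lists, and edgeR called 0 genes in any of the 10 lists after Benjamini-Hochberg adjustment. In the Ypel family, 3 of 4 genes were tested. Ypel2, a close relative of Ypel3, was at 23.2, 24.9 and 22.1 CPM in IL-4Rα+/+ and 19.1, 13.0 and 15.9 CPM in IL-4Rα-/- libraries, without overlap (log2 fold change -0.55, standard error 0.15, adjusted p = 0.618). Ypel4 went the other way, with 3, 1 and 6 counts against 15, 27 and 62 counts (log2 fold change 3.25, standard error 0.75). Erythroid markers were higher in the same libraries, and their part in Ypel4 was not tested. Ypel5 was at 117 to 131 against 126 to 137 CPM, with overlap and a log2 fold change of 0.09.

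Among the other phosphodiesterases of the Gdpd3 family 5 of 6 were tested, and none was lower at an unadjusted p under 0.05. Gdpd1, which also encodes a lysophospholipase D, was at 6.82, 5.28 and 4.53 CPM in IL-4Rα+/+ and 11.8, 6.48 and 8.12 CPM in IL-4Rα-/- libraries, with overlap (log2 fold change 0.67, standard error 0.27). Of 4 T-box genes tested, Mga, which encodes a partner of MAX, had a log2 fold change of -0.27 (standard error 0.08) without overlap. Among all genes tested, 7.87% were lower without overlap.

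In the pathways of the other members few genes had an unadjusted p under 0.05. Of 23 genes of the ERK pathway, 1 was higher and 1 lower at this threshold. They made up 8.7% of the list, beside 8.09% of all genes tested. The log2 fold change was 0.24 (standard error 0.08) for Hras and -0.20 (standard error 0.08) for Sos1, which encodes an exchange factor for RAS. Of 10 TAO, p38 and JNK kinase genes, Taok1 had a log2 fold change of -0.33 (standard error 0.11). Of 14 INO80 complex genes, Ino80, the ATPase of the complex, had one of -0.19 (standard error 0.07) and Ino80d one of -0.47 (standard error 0.18). The share under an unadjusted p of 0.05 was thus 10% of the kinase genes and 14.3% of the INO80 genes. At the same unadjusted threshold there were 0 of 7 phosphatase genes, 0 of 15 glycolysis genes, 0 of 5 coronin genes and 0 of 3 calcium sensor genes. The median log2 fold change of the 10 lists lay between -0.19 and 0.09, beside 0.008 over all genes tested.

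The genes whose log2 CPM followed Gdpd3 most closely over the 6 libraries were Gm27010, Abca7, Hectd4, Ddx46 and Tnpo1, with correlations of 0.992, 0.990, 0.989, 0.987 and 0.987. For Ypel3 they were Tmppe, Mapkapk5, Nat2, Gm44423 and Prpf4b, with correlations of 0.999, 0.993, 0.993, 0.989 and 0.989. None of these 10 genes lies on chromosome 7, and their differences between the genotypes were smaller than that of the gene they followed except for Gm44423. Abca7, a lipid transporter gene, was at 477 to 492 CPM in IL-4Rα+/+ and 389 to 435 CPM in IL-4Rα-/- libraries. Over 6 libraries such values are common, since 244 genes had a correlation above 0.9 with Gdpd3 and 333 with Ypel3.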

How the data were processed

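RNA-seq was performed on spleen monocytes of 6 mice, 1 library each. The authors mapped 75 bp single-end reads to GRCm38 by STAR 2.6.1a in 2-pass mode and deposited raw counts per Gencode gene. The strand setting of the counting is not given in the sources used here. However, 168 of 438 genes that lie wholly within exons of a gene on the other strand held reads, 9426 in all, which counting without strand would have left at 0. The summary lines of each file, 21.1 to 22.8% of its reads, were left out. Of 55421 identifiers 55240 were found in the Gencode M21 annotation, which gave symbols, positions and lengths. Aldoa carries 2 identifiers, and the one with longer exons was used.

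Genes were filtered with filterByExpr (minimum count 10), which left 13849, normalized by TMM and tested on genotype alone in edgeR 4.0.16 (R 4.3.3) by quasi-likelihood, with Benjamini-Hochberg adjustment and a threshold of 0.15. Correlations used log2 CPM with a prior count of 2. DESeq2 1.42.0, size factors, no filter, a replicate block, removal of length or GC trends (loess span 0.5), an Xist covariate, other windows around Il4ra, another gene length and leaving out each library were the alternatives.

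The members and gene lists were chosen with earlier results of these data known. The genes named are the members, Il4ra, genes overlapping a member, the 10 neighbours with the smallest p, listed relatives with an unadjusted p under 0.05 and, for Gdpd3 and Ypel3, the 5 most correlated genes. Ypel5, Bola2, Hirip3, Slx1b, Siglecf and Ccr3 were added after their values were seen.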

Additional observations from a re-analysis of the deposited data

How the results depend on the processing

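With DESeq2, 80 genes in all and 3 members (Gdpd3, Ypel3 and Tbx6) passed the threshold of 0.15, where edgeR called 0, and the cause was not tested. The number of other genes within 5 Mb of Il4ra with an unadjusted p under 0.05, 15 in the test reported, was 6 within 2 Mb, a window that holds 64 genes in place of 132, and 8 to 18 when 1 library was left out. The share over all genes tested moved the same way, from 8.09% to 4.5% without IL-4Rα-/- replicate 1 (8 neighbours), 4.44% without IL-4Rα+/+ replicate 2 (9), 6.98% without IL-4Rα-/- replicate 3 (9) and 12.1% without IL-4Rα+/+ replicate 3 (18). Same-numbered libraries had correlations of 0.185, -0.271 and -0.296 in their deviations from the group means, with a mean of -0.128. The labels do not say whether a number marks a shared litter or day, and 3 values cannot decide it. With the replicate block 0 genes and 0 members were called, 13 neighbours and 5.52% of all genes had an unadjusted p under 0.05, and the log2 fold changes were -1.26 for Gdpd3, -0.79 for Ypel3 and -1.14 for Tbx6. Over the 14 alternatives the log2 fold change lay between -1.41 and -1.10 for Gdpd3, between -0.91 and -0.69 for Ypel3 and between -1.42 and -0.81 for Tbx6. Of the other tested members, Ppp4c and Aldoa changed sign in 1 of the 14, and the rest in none. Doc2a, at 0 to 3 counts per library, allows no comparison at this depth.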

Other observations

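Some genes around the block had too few counts for a test, and 2 of them are given here, chosen after their values were seen. The others within 0.1 Mb of the block that exceeded 3 counts in a library overlapped between the genotypes. Gm6939, a transcribed pseudogene on the minus strand of chromosome 7 from 126687459 to 126690034 (GRCm38), on the Il4ra side of the block, had 7, 11 and 10 counts in IL-4Rα+/+ and 0, 0 and 0 counts in IL-4Rα-/- libraries. It was at least 3.26-fold lower in IL-4Rα-/- monocytes when a floor of 3 counts per library is used. Its span overlaps that of Slx1b on the same strand (126689468 to 126695784), which had 307 to 490 counts per library. How reads were assigned between these genes was not tested. The reads of Gm6939 could also be shared with a near-identical copy. Gm44735, a transcript model from 126938886 to 126940637, had 13, 23 and 6 counts in IL-4Rα+/+ and 3, 3 and 4 counts in IL-4Rα-/- libraries, again without overlap of the counts. Lower without overlap in CPM were 7.87% of all genes tested.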
